A study of Homo sapiens with 6 samples.

Results

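The EIF genes encode the translation initiation factors, which bring ribosomes to messenger RNA and set them on the start codon. Their transcripts were followed in RNA pulled down with anti-AGO2, AGO2 being an Argonaute protein that carries microRNAs. Members were the genes whose symbol starts with EIF1 to EIF6 on an Affymetrix probe set naming that symbol only, leaving out the EIF2AK kinases and pseudogenes. Where a gene had more than 1 such probe set, the brightest over the 6 arrays was taken. This gave 46 of the 18417 genes measured, 45 of them protein-coding and 1, EIF3J-DT, a non-coding transcript that starts beside EIF3J. EIF1AY lies on the Y chromosome and was counted, but its values are not shown.

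The samples were PC3 cells, an established line from an aggressive prostate cancer that grows without androgen. They were transfected with a miR-205 mimic (n = 3 arrays) or with a negative control mimic (n = 3 arrays), and every array was hybridised with the AGO2-bound RNA. The labels call the 3 samples of a group biological triplicates, and no input RNA was analysed here. Without input RNA, altered transcript abundance and altered AGO2 binding cannot be told apart. The keratin genes KRT8 and KRT18, VIM and CD44, all known in PC3, were well above 6.04 on the log2 scale, the 95th percentile of 341 olfactory receptor genes taken here as a line for dim signal. KLK3, the prostate-specific antigen, lay beside that line (5.98 to 6.18), and the leukocyte genes PTPRC (3.53 to 3.68) and CD3E (5.19 to 5.39) and the liver gene ALB (3.79 to 4.16) lay under it. APOA1, another liver gene, lay above it on all 6 arrays (7.26 to 7.43).

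Initiation starts when eIF2, a GTPase of 3 subunits, brings the initiator tRNA to the small ribosomal subunit, helped by eIF1, eIF1A, eIF3 and eIF5. The exchange factor eIF2B recharges eIF2 with GTP, and phosphorylation of the eIF2 alpha subunit under stress blocks that exchange. The cap-binding protein eIF4E, the scaffold eIF4G and the helicase eIF4A load the mRNA, while eIF5B joins the large subunit and eIF6 keeps free large subunits apart from small ones. MicroRNA-bound Argonaute complexes are known to repress translation at the initiation step as well as to shorten the life of their targets.

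The mimic is taken here to stand for the mature 5p strand of miR-205, whose seed, bases 2 to 8, pairs with target transcripts. This strand is shown because every difference reported here is between cells given the mimic and cells given the negative control mimic. It is encoded on chromosome 1 (GRCh38.p14, chr1:209432166-209432187, plus strand, RefSeq), and capitals mark the seed.
hsa-miR-205-5p: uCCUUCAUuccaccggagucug
Transcript sequence was not used here, so no initiation factor transcript was searched for the seed match.

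With the miR-205 mimic, initiation factor transcripts moved in both directions and by small amounts. Of the 46 genes, 11 rose, 8 fell and 27 missed an adjusted p of 0.05 (limma, Benjamini-Hochberg over all 18417 genes). The share past the threshold was 41.3%, against 26.6% of all genes. Upward the share was 23.9%, against 12.6% of all genes, and downward 17.4%, against 14.0%. The median difference over the 46 genes was 0.03 log2, against -0.02 over all genes. All miR-205 arrays lay on the same side of all control arrays for 33 of the 46 genes (71.7%), against 42.2% of all genes. The largest absolute difference was 0.58 log2, and 5.03% of all genes had a larger one. Among genes past the threshold the median absolute difference was 0.29 for initiation factors, against 0.36 for all genes. The gap to all genes was narrower in several other settings. With dim genes filtered out, 48.9% of the 45 members left passed, against 38.8% of all 13590 genes left. With 1 array left out, 21.7% to 34.8% of the members passed, against 18.3% to 30.1% of all genes. The gap was smallest without negative control replicate 3 (21.7% against 19.7%), without miR-205 replicate 3 (21.7% against 19.0%) and without miR-205 replicate 2 (21.7% against 18.3%). In counts, 6 to 9 members rose and 3 to 7 fell with 1 array left out. The fewest rose without negative control replicate 3 (6) or without any 1 of the miR-205 replicates (7 each). The fewest fell without miR-205 replicate 2 or 3 (3 each), without negative control replicate 3 (4) or without negative control replicate 1 (5). Testing every probe set on the array left 6 higher and 4 lower (21.7%, against 14.5% of all probe sets). With quantile normalization repeated, 10 rose and 11 fell, so the balance of directions depends on the scaling. Among the members, 9 passed in all 15 alternative settings: EIF2B3, EIF2B4, EIF2D, EIF4A2, EIF4G2 and EIF6 upward, and EIF4B, EIF4E3 and EIF5B downward. How many of all genes passed in every setting was not counted, so this number has no share of all genes beside it.

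**Figure D1:**
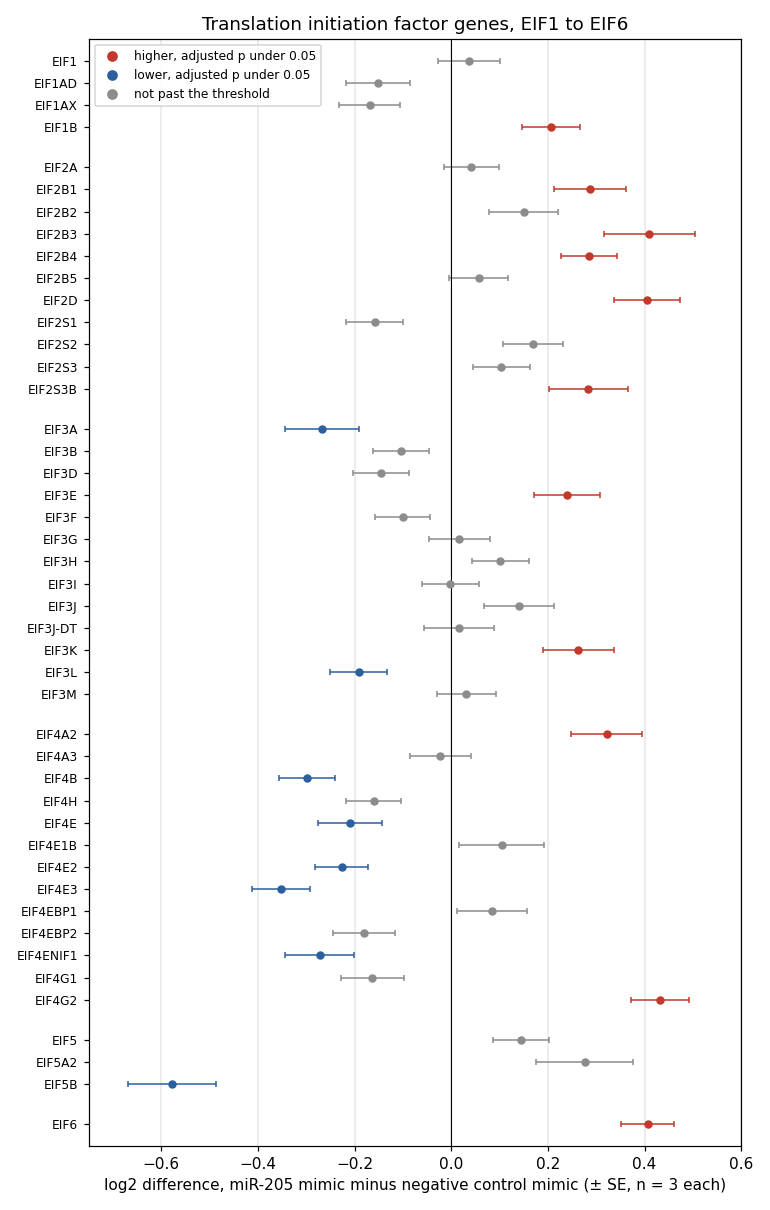
Log2 difference, miR-205 mimic minus negative control mimic, for the 45 initiation factor genes shown, ordered from EIF1 at the top to EIF6 at the bottom. Points are the limma estimates, whiskers the SE (n = 3 arrays per group), and colours the side of the adjusted p threshold; called genes range from -0.58 for EIF5B to 0.43 for EIF4G2.

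Of the 5 genes in the EIF1 group, 1 passed (20%, against 26.6% of all genes). EIF1B, a close paralog of EIF1 with a less studied role, rose by 0.21 ± 0.06 (log2 difference ± SE, adjusted p = 0.0337). Its call ended in 7 of the 15 alternatives, among them without any 1 control array and without miR-205 replicate 1 or 3 (adjusted p up to 0.119). EIF1 itself, which guards start-codon choice, differed by 0.04 (95% interval -0.11 to 0.18). EIF1AX, which works beside EIF1 on the scanning ribosome, differed by -0.17 (adjusted p = 0.083), and EIF1AD, a protein with an eIF1A-like domain, by -0.15 (adjusted p = 0.131). A second EIF1AX probe set gave -0.21 and did not pass when every probe set was tested (adjusted p = 0.0821). EIF1 and EIF1B are similar in sequence, and how far their probes share signal was not tested.

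In the EIF2 group, 5 of 11 genes rose (45.5%, against 12.6% of all genes) and 0 fell (against 14.0%). The median was 0.17 log2. The exchange factor eIF2B accounted for 3 of the rises. EIF2B3, the gamma subunit of its catalytic arm, stood at 9.14, 9.26 and 9.27 with miR-205, against 8.61, 8.89 and 8.95 with the control mimic. The groups did not overlap, and negative control replicate 1 was the lowest array. EIF2B3 rose by 0.41 ± 0.09 (1.33-fold, adjusted p = 0.0124). EIF2B4, the delta subunit of the regulatory core, stood at 9.90, 9.95 and 9.84 with miR-205, against 9.62, 9.60 and 9.61 with the control. The control arrays were nearly level with each other, and EIF2B4 rose by 0.29 ± 0.06 (adjusted p = 0.00727). EIF2B1, the alpha subunit, which joins the core into its dimer, stood at 11.16, 11.15 and 11.17 with miR-205, against 10.83, 11.02 and 10.77 with the control. Every miR-205 array was above the control arrays, of which replicate 2 was the highest, and EIF2B1 rose by 0.29 ± 0.07 (adjusted p = 0.021). Its call ended when any 1 array other than negative control replicate 2 was left out (adjusted p up to 0.0702). The remaining subunits did not pass. The beta subunit gene EIF2B2 differed by 0.15 (95% interval -0.01 to 0.31), and EIF2B5, the catalytic epsilon subunit, by 0.06 (95% interval -0.08 to 0.20). All 5 eIF2B estimates were above 0, but the intervals of EIF2B2 and EIF2B5 hold 0, so they exclude neither a rise nor a small fall.

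EIF2D, which can deliver tRNA to the ribosome without eIF2 and helps recycle ribosomes, stood at 10.91, 10.91 and 10.79 with miR-205, against 10.37, 10.49 and 10.53 with the control. The groups lay well apart, and EIF2D rose by 0.40 ± 0.07 (1.32-fold, adjusted p = 0.00308). DENR, a partner protein that does the same recycling work together with MCTS1, rose by 0.22 (adjusted p = 0.0289), and MCTS1 differed by 0.19 (adjusted p = 0.122). EIF2A, another tRNA-binding factor, differed by 0.04 (95% interval -0.09 to 0.17).

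The 3 subunits of eIF2 itself did not pass. Their groups did not overlap, with EIF2S1 lower and EIF2S2 and EIF2S3 higher with miR-205. Of all genes, 42.2% did not overlap either. EIF2S1, the alpha subunit that stress kinases phosphorylate, stood at 12.55, 12.61 and 12.62 with miR-205, against 12.78, 12.69 and 12.78 with the control. All miR-205 arrays were lower, with a difference of -0.16 ± 0.06 (adjusted p = 0.0826). Under repeated quantile normalization the difference was -0.23 (adjusted p = 0.0254), and the call also passed with a trend and robust variance. The beta subunit gene EIF2S2 differed by 0.17 (adjusted p = 0.0788), and the gamma subunit gene EIF2S3 by 0.10 (adjusted p = 0.246). EIF2S3B, a copy of the gamma subunit gene, stood at 7.33, 7.23 and 7.15 with miR-205, against 7.10, 6.91 and 6.85 with the control. The lowest miR-205 array was close to the highest control array, and EIF2S3B rose by 0.28 ± 0.08 (adjusted p = 0.0325). Its call ended without negative control replicate 2 or 3 and without miR-205 replicate 1 or 2. Signal shared between EIF2S3 and its copy cannot be separated on these probes.

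**Figure D2:**
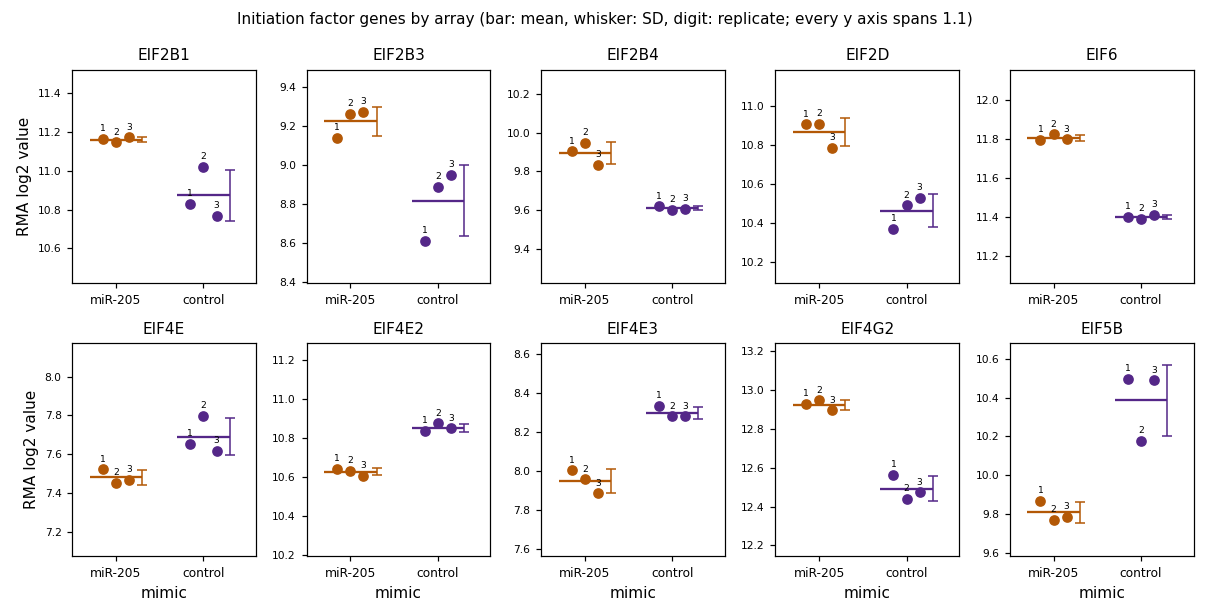
RMA log2 values by array of 10 initiation factor genes, miR-205 mimic on the left and negative control mimic on the right of each panel. Digits are replicate numbers, bars the mean and whiskers the SD (n = 3); the groups do not overlap in any panel, and negative control replicate 2 lies nearer the miR-205 arrays than the other control arrays do for EIF2B1 and EIF5B.

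The scaffold complex eIF3, which links the small ribosomal subunit to the mRNA, was mixed. Of 12 measured subunit genes, 2 rose (16.7%, against 12.6% of all genes) and 2 fell (16.7%, against 14.0%). The remaining 8 missed the threshold, so the shares in both directions were near those of all genes. The median over the 12 was 0.01 log2. EIF3A, the largest subunit and part of the structural core, stood at 10.67, 10.52 and 10.40 with miR-205, against 10.80, 10.76 and 10.83 with the control. All miR-205 arrays were lower but spread more widely, and EIF3A fell by 0.27 on the log2 scale (SE 0.08, adjusted p = 0.0316). EIF3L, which pairs with EIF3K at the edge of the complex, fell by 0.19 (adjusted p = 0.0414), a call that ended with any 1 array left out (adjusted p up to 0.149). EIF3K stood at 10.95, 11.06 and 11.09 with miR-205, against 10.65, 10.85 and 10.81 with the control. The groups did not overlap, and EIF3K rose by 0.26 ± 0.07 (adjusted p = 0.0297), so these partner subunits had called differences of opposite sign. EIF3E, a subunit that contacts the eIF4G scaffold, stood at 11.71, 11.73 and 11.81 with miR-205, against 11.61, 11.43 and 11.50 with the control. It rose by 0.24 ± 0.07 (adjusted p = 0.031), with negative control replicate 1 the nearest array. The call of EIF3A ended without miR-205 replicate 2 or 3 or negative control replicate 1 or 3, and so did that of EIF3K. The call of EIF3E ended without any 1 miR-205 array, without negative control replicate 2 or 3, and under repeated quantile normalization.

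The other 8 eIF3 subunits ranged from -0.15 for EIF3D, a subunit that can bind the cap itself, to 0.14 for EIF3J, the loosely held subunit that acts on the mRNA channel. The core subunit genes EIF3B (-0.10) and EIF3I (-0.0018), and EIF3G (0.02), stayed under the threshold, as did EIF3F (-0.10), EIF3H (0.10) and EIF3M (0.03). For EIF3I the 95% interval ran from -0.14 to 0.13 and for EIF3G from -0.13 to 0.16. A second, dimmer EIF3F probe set gave -0.11 and did not pass either. EIF3J-DT, the non-coding neighbour of EIF3J, differed by 0.02 (95% interval -0.15 to 0.18).

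In the EIF4 group, 5 of 13 genes fell (38.5%, against 14.0% of all genes) and 2 rose (15.4%, against 12.6%). The group holds the factors that load the mRNA, and also inhibitors and other genes of the same symbol stem. The median was -0.16 log2. Cap-binding proteins made up 3 of the falls. EIF4E3, an atypical member of the family, stood at 8.003, 7.957 and 7.885 with miR-205, against 8.34, 8.28 and 8.28 with the control. The groups were well separated, and EIF4E3 fell by 0.35 on the log2 scale (SE 0.06, adjusted p = 0.00308). EIF4E2, which binds the cap without eIF4G and is known as a translational repressor on microRNA targets, stood at 10.64, 10.63 and 10.61 with miR-205, against 10.84, 10.88 and 10.85 with the control. The arrays within a group were close together, and EIF4E2 fell by 0.23 (SE 0.05, adjusted p = 0.0154). It lost the threshold without miR-205 replicate 2 or 3 (adjusted p up to 0.0569). EIF4E, the main cap-binding protein, stood at 7.52, 7.45 and 7.47 with miR-205, against 7.65, 7.80 and 7.62 with the control. The groups were separate but close, and EIF4E fell by 0.21 (SE 0.07, adjusted p = 0.0471). That call passed in 5 of the 15 alternatives only and ended with any 1 array left out (adjusted p up to 0.145). EIF4E1B, a cap-binding protein known from oocytes, differed by 0.10 (95% interval -0.10 to 0.31).

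Proteins that bind eIF4E were read beside it. EIF4ENIF1, the transporter that carries eIF4E into the nucleus and to processing bodies, stood at 8.23, 8.14 and 8.001 with miR-205, against 8.36, 8.43 and 8.40 with the control. All miR-205 arrays were lower, and EIF4ENIF1 fell by 0.27 on the log2 scale (SE 0.07, adjusted p = 0.0227). Its call ended without miR-205 replicate 2 or 3 or negative control replicate 3. EIF4EBP1, which blocks eIF4E until mTOR phosphorylates it, stood at 10.82, 10.73 and 10.70 with miR-205, against 10.68, 10.76 and 10.55 with the control. The groups overlapped, with a difference of 0.09 (95% interval -0.08 to 0.25). The related inhibitor EIF4EBP2 differed by -0.18 (adjusted p = 0.0705) and passed under repeated quantile normalization, with dim genes filtered out, and with a trend and robust variance (adjusted p down to 0.0139).

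Of the scaffold genes, EIF4G2 passed and EIF4G1 did not. EIF4G2, which lacks the eIF4E-binding region of EIF4G1 and serves cap-independent initiation, stood at 12.93, 12.95 and 12.90 with miR-205, against 12.56, 12.44 and 12.47 with the control. The gap between the groups was wider than the spread within either, and EIF4G2 rose by 0.43 ± 0.06 (1.35-fold, adjusted p = 0.00114). EIF4G1, the main scaffold, stood at 10.38, 10.52 and 10.52 with miR-205, against 10.60, 10.60 and 10.70 with the control. All its miR-205 arrays were lower, with a difference of -0.16 ± 0.07 that did not pass (adjusted p = 0.103). EIF4G1 passed in none of the 15 alternatives. Less its control mean, EIF4G2 minus EIF4G1 stood at 0.69, 0.57 and 0.52 with miR-205, against 0.10, -0.02 and -0.09 with the control. Every miR-205 value was above every control value, so on these arrays EIF4G2 rose relative to EIF4G1, by 0.59. An exact permutation test of this difference gave p = 0.1. That is the lowest p it can reach with 3 against 3 arrays, so that test could not decide the question.

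Of the member helicase genes and their cofactors, EIF4A2 rose, EIF4B fell, and EIF4A3 and EIF4H did not pass. Over all genes, 12.6% rose and 14.0% fell, and so few helicase genes cannot be set against those shares. EIF4A2, a helicase close to EIF4A1, stood at 11.25, 11.21 and 11.25 with miR-205, against 10.80, 10.91 and 11.04 with the control. The miR-205 arrays lay together above a wider control group, and EIF4A2 rose by 0.32 ± 0.07 (1.25-fold, adjusted p = 0.0118). A second EIF4A2 probe set lay about the 6.04 line in the control arrays (5.83 to 6.04) and did not pass when every probe set was tested (adjusted p = 0.0963). EIF4A3, the helicase that marks exon junctions, differed by -0.02 (95% interval -0.17 to 0.12). EIF4B, which stimulates the helicase, stood at 12.35, 12.43 and 12.35 with miR-205, against 12.71, 12.68 and 12.64 with the control. The groups were clearly apart, and EIF4B fell by 0.30 on the log2 scale (SE 0.06, adjusted p = 0.00595). The other 2 EIF4B probe sets gave -0.23 and -0.08, neither of which passed when every probe set was tested. EIF4H, a cofactor related to EIF4B, differed by -0.16 (adjusted p = 0.0686), with -0.15 at a second probe set that did not pass either, and it passed under 3 alternatives, among them repeated quantile normalization (-0.24, adjusted p = 0.0186).

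**Figure D3:**
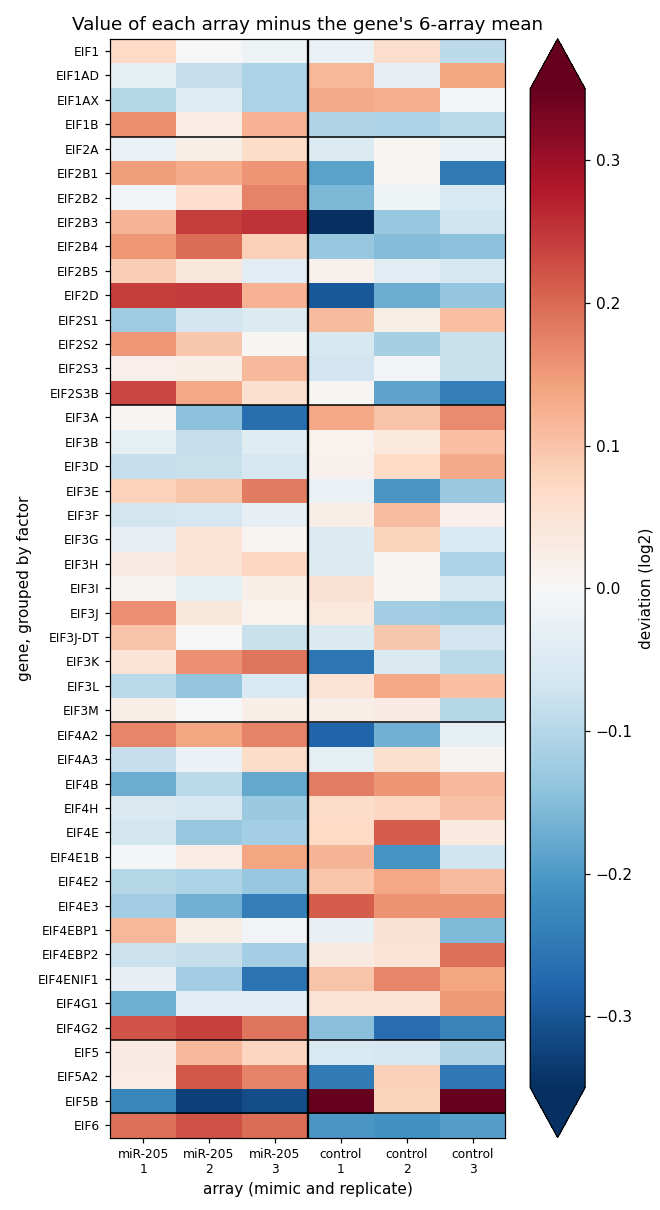
Value of each array minus the gene's mean over the 6 arrays (log2), for 45 initiation factor genes in rows grouped by factor, with the miR-205 arrays left of the control arrays. Red is above and blue below the gene's mean; the EIF2B4, EIF4G2 and EIF6 rows are red with miR-205, while EIF5B, EIF4B and EIF4E3 are blue.

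The EIF5 group held EIF5B, which had the largest absolute difference of all members. EIF5B, the GTPase that joins the large subunit, stood at 9.87, 9.77 and 9.79 with miR-205, against 10.50, 10.18 and 10.49 with the control. Of the control arrays, replicate 2 was the lowest and so the nearest to the miR-205 level. EIF5B fell by 0.58 on the log2 scale (SE 0.09, a ratio of 0.670, adjusted p = 0.00223). The fall was between 0.52 and 0.68 in all 15 alternatives. EIF5, which triggers GTP hydrolysis by eIF2, differed by 0.14 (adjusted p = 0.0983). EIF5A2, a paralog of the hypusine-carrying factor EIF5A, differed by 0.28 (adjusted p = 0.0745), with negative control replicate 2 (8.73) inside the miR-205 range of 8.67 to 8.86 and the other control arrays at 8.40. Without that array its difference was 0.39 (adjusted p = 0.00569), and it also passed with array weights, with the replicate number as a block and with a trend and robust variance.

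EIF6 had the smallest p-value of the members. It stood at 11.80, 11.83 and 11.80 with miR-205, against 11.40, 11.39 and 11.41 with the control. The spread within each group was far smaller than the gap, and EIF6 rose by 0.41 ± 0.05 (1.32-fold, adjusted p = 0.000943). Its rise was between 0.37 and 0.41 in all 15 alternatives.

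Negative control replicate 2 carried more immediate-early and cytokine RNA than the other control arrays. The mean of 13 such genes was 10.90 to 10.99 with miR-205, against 10.49 in negative control replicate 2, 9.0002 in replicate 1 and 8.9976 in replicate 3. Among the 19 called members, replicate 2 was the control array nearest the miR-205 mean for 4, replicate 1 for 7 and replicate 3 for 8. A control array near the miR-205 arrays makes passing harder, so a count over called members cannot show how members generally lie. The count over all members or all genes was not made. Without replicate 2, 9 members rose and 7 fell, and 14 of the 19 calls remained. The members' share past the threshold was then 34.8%, lower than with all arrays, while that of all genes was higher, at 30.1%.

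Regulators that act on initiation factors moved in both directions too. Of 38 measured regulators and partners, 6 rose and 6 fell, while 26 missed the threshold. Their median was -0.04 log2. The share past the threshold was 31.6%, against 26.6% of all genes. All 38 lay above the dim line. With dim genes filtered out, 7 of them rose and 8 fell, while 38.8% of all genes left passed. IMPACT, which restrains activation of the eIF2 kinase GCN2, stood at 10.63, 10.43 and 10.52 with miR-205, against 9.73, 9.95 and 9.65 with the control. It rose by 0.75 ± 0.09 (1.69-fold, adjusted p = 0.000525), the largest called difference of the list. Of the 11 genes in its arm, the eIF2 kinases, phosphatase subunits and related genes, 1 rose and 0 fell. That is 9.09% past the threshold, against 26.6% of all genes. The eIF2 kinase genes did not pass: EIF2AK1 differed by -0.16, EIF2AK2 by 0.16, EIF2AK3 by -0.21 and EIF2AK4 by -0.01. PPP1R15A, the stress-induced subunit that directs a phosphatase to eIF2 alpha, was picked after its values were seen. It stood at 10.91, 11.00 and 10.81 with miR-205, against 9.89, 10.85 and 10.02 with the control, so that negative control replicate 2 lay inside the miR-205 range. Its difference of 0.65 did not pass (adjusted p = 0.0514), and without that array it was 0.95 (adjusted p = 9.75e-05). It passed in 5 of the 15 alternatives. ATF4, whose translation rises when eIF2 alpha is phosphorylated, differed by -0.07 (95% interval -0.22 to 0.08).

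In the mTOR arm, which frees eIF4E through its inhibitors, 4 of 13 genes fell (30.8%, against 14.0% of all genes) and 1 rose (7.69%, against 12.6%). RPTOR, the substrate-binding subunit of mTOR complex 1, stood at 9.42, 9.43 and 9.47 with miR-205, against 9.80, 9.78 and 10.02 with the control. It fell by 0.43 on the log2 scale (SE 0.08, adjusted p = 0.00366). Lower too were TSC1 (-0.48), a brake on the complex, RHEB (-0.23), its activating GTPase, and RPS6KB1 (-0.18), a kinase downstream of it. MTOR itself differed by -0.17 (adjusted p = 0.124) and PDCD4, an inhibitor of eIF4A, by -0.15 (adjusted p = 0.172). MKNK1, a kinase that phosphorylates eIF4E, rose by 0.34 (adjusted p = 0.003).

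Of 14 partners bound to mRNA or the ribosome, 4 rose (28.6%, against 12.6% of all genes) and 2 fell, a share near the 14.0% of all genes. PAIP1, which ties the poly(A)-binding protein to eIF4A and eIF3, stood at 11.12, 10.98 and 11.02 with miR-205, against 10.60, 10.53 and 10.50 with the control. It rose by 0.50 ± 0.06 (adjusted p = 0.000805). The poly(A)-binding protein gene PABPC4 fell by 0.29 (adjusted p = 0.00671), while PABPC1 differed by -0.02 (95% interval -0.15 to 0.10). Higher too were the RNA-binding gene LARP4 (0.49) and DHX29 (0.33), a helicase for structured leaders, while the decapping scaffold PATL1 was lower (-0.27).

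Among 18 elongation and release factor genes, 4 rose and 1 fell, while 13 missed the threshold. The share past it was 27.8%, close to the 26.6% of all genes, and their median was 0.05 log2. Of the 18, 17 lay above the dim line. With dim genes filtered out, 4 rose and 1 fell, while 38.8% of all genes left passed. ETF1, which reads stop codons, stood at 10.05, 9.93 and 9.90 with miR-205, against 9.47, 9.48 and 9.49 with the control. It rose by 0.49 ± 0.06 (1.40-fold, adjusted p = 0.000749). GSPT2, which encodes a GTPase partner of ETF1, fell by 0.30 (adjusted p = 0.00896), and the paralog GSPT1 differed by 0.14 (adjusted p = 0.118). DPH5 (0.41) and DPH2 (0.24), which build the diphthamide of elongation factor eEF2, rose, as did EEF1A2 (0.22). The abundant factor EEF2 differed by -0.03 (95% interval -0.16 to 0.10). The count of rises was 2 to 4 with 1 array left out, falling to 2 without any 1 miR-205 array or negative control replicate 1.

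**Figure D4:**
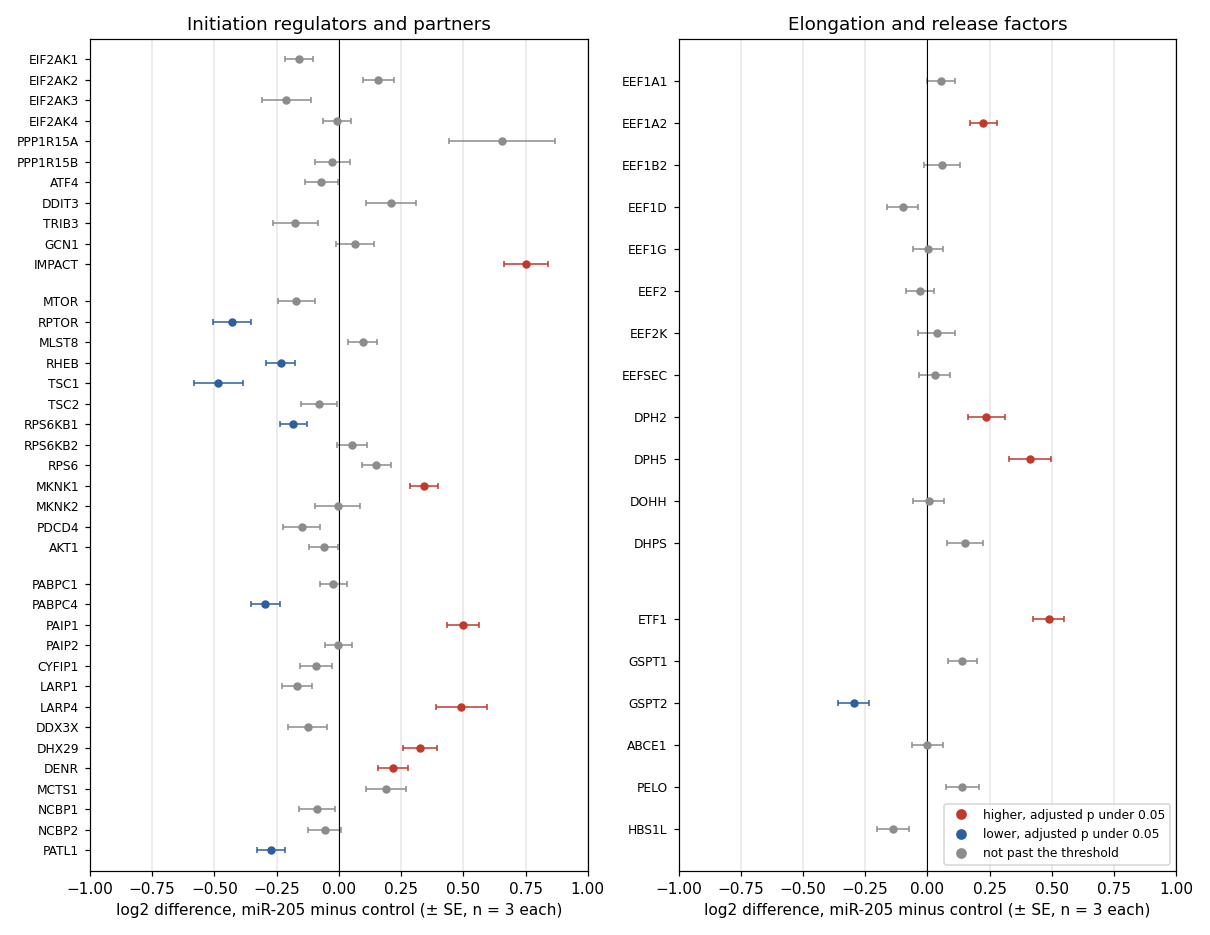
Log2 difference, miR-205 mimic minus negative control mimic (± SE, n = 3 arrays per group), for 38 regulators and partners of initiation on the left and 18 elongation and release factors on the right. Colours give the side of the adjusted p threshold; called values run from -0.48 for TSC1 to 0.75 for IMPACT, and most genes of both lists lie near 0.

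Promoter sequence gives one feature that the choice of members did not use. Of the 46 genes, 39 had a promoter in the RefSeq table (GRCh38.p14), and the 250 bases before the start were searched on both strands for 13 motifs. The E-box CACGTG, which reads the same on both strands and is bound by MYC and related factors, was in 10 of the 39 (25.6%), against 7.73% of the 27305 genes with a promoter there. It was in 3 of 10 genes that rose, 2 of 6 that fell and 5 of 23 that did not pass, so it stood before genes of each kind. The motif GGGCGG, known for SP1, was in 30 of the 39 (76.9%), against 46.2% of all genes. The motif CCAAT was in 15 (38.5%), against 37% of all genes. Other motifs were scarcer here than among all genes, CAGGTG in 2 of the 39 (5.13%, against 20.6%) and TATAAA in 1 (2.56%, against 13%). The motif TTCCGGC was in 5 of the 39 (12.8%, against 6.3% of all genes). These were 4 of 10 genes that rose, 0 of 6 that fell and 1 of 23 that did not pass. These 6 motifs were picked for the text after the counts were seen, and a match is only a description of the letters. The 27305 genes were taken whatever their type or level. The members, by contrast, were all protein-coding except EIF3J-DT, and those shown lay above the dim line. Whether other protein-coding genes of like level have these motif shares was not tested.

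The 250 bases before the start of the 5 called genes with the E-box are shown because they place it before genes that rose and genes that fell, in capitals and read from the 5′ end. EIF4E, which carries it at 225 and at 72 bases before the start (chr4:98929134-98929383, minus strand), and EIF4B, at 22 bases (chr12:53006206-53006455, plus strand), fell with miR-205. EIF2B3, at 179 bases (chr1:44986596-44986845, minus strand), EIF3K, at 103 bases (chr19:38618938-38619187, plus strand), and EIF1B, at 54 bases (chr3:40309457-40309706, plus strand), rose.
EIF4E: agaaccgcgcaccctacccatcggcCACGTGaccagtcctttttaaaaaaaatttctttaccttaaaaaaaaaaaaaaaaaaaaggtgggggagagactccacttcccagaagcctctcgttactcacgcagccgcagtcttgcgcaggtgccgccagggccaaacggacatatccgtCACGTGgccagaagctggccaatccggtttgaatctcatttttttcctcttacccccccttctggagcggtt
EIF4B: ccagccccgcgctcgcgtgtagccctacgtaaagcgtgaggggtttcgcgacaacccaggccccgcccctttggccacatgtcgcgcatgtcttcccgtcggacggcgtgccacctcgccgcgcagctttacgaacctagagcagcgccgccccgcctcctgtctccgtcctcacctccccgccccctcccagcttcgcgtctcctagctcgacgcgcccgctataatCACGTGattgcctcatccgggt
EIF2B3: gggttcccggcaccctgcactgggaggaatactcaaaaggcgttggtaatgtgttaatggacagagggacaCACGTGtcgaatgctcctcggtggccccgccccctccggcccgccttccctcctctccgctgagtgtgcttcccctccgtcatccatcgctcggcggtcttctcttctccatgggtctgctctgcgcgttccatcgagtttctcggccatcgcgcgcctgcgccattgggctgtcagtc
EIF3K: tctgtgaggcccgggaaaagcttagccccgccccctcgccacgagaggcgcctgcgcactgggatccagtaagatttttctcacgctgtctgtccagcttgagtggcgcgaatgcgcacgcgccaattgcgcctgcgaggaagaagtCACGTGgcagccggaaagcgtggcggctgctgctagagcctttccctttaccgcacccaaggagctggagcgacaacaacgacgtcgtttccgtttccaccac
EIF1B: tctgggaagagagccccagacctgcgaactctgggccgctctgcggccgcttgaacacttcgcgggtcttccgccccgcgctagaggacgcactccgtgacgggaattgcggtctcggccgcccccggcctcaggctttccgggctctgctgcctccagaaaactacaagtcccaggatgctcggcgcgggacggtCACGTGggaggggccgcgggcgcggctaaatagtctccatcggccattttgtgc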

How the data were processed

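AGO2-bound RNA of PC3 cells was measured on 6 arrays, 3 with the miR-205 mimic and 3 with the negative control mimic, grouped by the sample titles. Per the submitters' processing notes, the deposited log2 values came from RMA in Affymetrix Expression Console 1.1.2. They were used without further normalization. Of 33297 probe sets, 19460 carried 1 gene symbol in the platform table and 1754 several. The brightest probe set per gene left 18417 genes, all fitted together with limma 3.58.1 in R 4.3.3 (group as the only term, eBayes, two-sided, Benjamini-Hochberg, threshold 0.05). The fit was tested on simulated data. The Entrez numbers of all 46 members were found in the RefSeq gene table, and the gene types and chromosomes come from it. The members, the 2 other lists and the tests were chosen with earlier results of these data known. Named with values by array were the 16 called members of smallest p, which include EIF6, plus EIF4E, EIF4G1, EIF2S1 and EIF4EBP1, and of the other lists values were given for the 5 called genes of smallest p plus MTOR, PDCD4, EEF2 and PABPC1. Further genes of those lists were named after their values were seen. EIF4A1, EIF5A and EIF3C stand only on probe sets with several symbols. No column of values was unused (0). The number of arrays limits the precision. Same-numbered arrays of the groups did not deviate together (correlations of 0.06, 0.09 and 0.01 over genes), so the numbers were not taken as pairs. The alternatives were other normalizations, filters, probe set summaries, variance models, array weights, a replicate block and leaving out each array.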

Additional observations from a re-analysis of the deposited data

Results flagged for a closer look

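Probe sets naming an initiation factor beside another symbol lay outside the counts. Of 10 such probe sets, 2 were higher with miR-205 and 0 lower by limma over all 33297 probe sets, of which 14.5% passed. Both name EIF3C, a core eIF3 subunit, and its copy EIF3CL, and their values are identical on every array, so they are 1 measurement. The count is therefore not read as an excess over all probe sets. It stood at 12.39, 12.38 and 12.31 with miR-205, against 12.02, 12.03 and 12.00 with the control, a difference of 0.342 (SE 0.06, adjusted p = 0.01). The remaining 8 did not pass. The 3 probe sets of EIF5A and EIF5AL1 gave 0.11 to 0.12, and the main EIF4A1 probe set gave -0.12.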

How the results depend on the processing

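Over the 15 alternatives, the 19 called members kept their direction. Testing all probe sets gave 6 initiation factor genes higher and 4 lower. With 1 array left out, the counts ran from 6 to 9 higher and 3 to 7 lower for initiation factors, and from 2 to 4 higher for elongation and release factors. With the replicate number as a block, 11 initiation factor genes were higher and 6 lower, and the calls of EIF1B, EIF3L and EIF4E ended. With a trend and robust variance, 14 were higher and 12 lower (56.5%, against 29.7% of all genes). With dim genes filtered out, 12 were higher and 10 lower (48.9%, against 38.8%). For regulators and partners the counts ran from 5 to 8 higher and 4 to 8 lower over the alternatives. Genes near 0 that did not pass changed sign in places. With quantile normalization repeated, EIF1 was at -0.0587 and EIF3G at -0.0278. With 1 array left out, EIF1 ran from -1.7e-05 to 0.0757, EIF3G from -0.00592 to 0.0596, EIF3I from -0.0308 to 0.0237, EIF3J-DT from -0.0306 to 0.0668, EIF3M from -0.0108 to 0.0544 and EIF4A3 from -0.0608 to 0.0118. The causes were not tested. The members shown all lay above the olfactory receptor line of 6.04, but so did the liver gene APOA1 (7.26 to 7.43). Group means with miR-205 and with the control lay near that level for EIF2S3B (7.24 and 6.95), EIF4E (7.48 and 7.69) and EIF4E1B (7.55 and 7.45). Whether dim signal limits these members was not tested. The 3 arrays per group limit the precision.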
